A study of Mus musculus with 16 samples.

Results

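Schwann cells wrap the axons of peripheral nerves, and those that myelinate an axon build a compact sheath from lipids and a small set of membrane proteins. Sox10 keeps the lineage in place, Egr2 (Krox20) switches on myelin protein and lipid genes, and Mbp, Pmp22, Prx and Mag encode parts of the sheath. S100b is a calcium-binding protein used as a Schwann cell marker, and Ngfr (the low-affinity neurotrophin receptor p75) is high in immature, non-myelinating and injured Schwann cells. Skin nerves run through the dermis as small bundles, so transcripts of these genes make up a minor share of RNA from whole skin. The genes described here are these 8 (Mbp, Pmp22, S100b, Sox10, Egr2, Prx, Mag and Ngfr), taken by symbol from the 19439 genes listed in at least 1 library. All 8 were listed in all 16 libraries, and all 8 passed the low-count filter.

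The libraries were made from the ear skin of 8-week-old BALB/c mice that all received imiquimod (IMQ), an immune-activating drug that causes psoriasis-like inflammation of the skin. The groups, each of 4 mice with 1 library per mouse, were LPC at day 7, vehicle at day 7, LPC at day 4 and vehicle at day 4. LPC mice were injected in the ear with 10 µl of lysophosphatidylcholine at 10 mM, and vehicle mice with 10 µl of saline, at 1 injection per day out of a planned 6 days. Lysophosphatidylcholine is a phospholipid with a single fatty acid chain, and injected into nerve or white matter it is a classical agent for demyelination. Skin without imiquimod and skin without an injection were not analysed here, so every value below is from inflamed, injected skin.

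Libraries held 18704197 to 20131513 expected counts. In edgeR's quasi-likelihood test, a gene was called when its Benjamini-Hochberg adjusted p over all 15782 genes tested was below 0.05. LPC against vehicle called 0.139% of genes at day 4 and 3.83% at day 7, and 4.07% for the LPC effect averaged over both days. Day 7 against day 4 called 11% of genes with LPC and 0% with vehicle. Of the day 7 calls 62.3% were higher with LPC, against 47.1% when FPKM + 0.1 was tested with limma, a scale on which the median of all genes shifted by -0.12. On that scale the share of higher calls between the days with LPC was 36%, against 62.4% on counts. The 10 keratinocyte markers summed to 17118 to 47233 CPM (read counts scaled to a common library size, with TMM factors). Libraries also differed in tissue content. Skeletal muscle markers, 12 genes that include actin and myosin chains of muscle fibres, summed to 332 to 19262 CPM in LPC day 7 mice and 2176 to 9782 CPM in vehicle day 7 mice. They summed to 245 to 3022 CPM in LPC day 4 mice and 3109 to 34728 CPM in vehicle day 4 mice, without overlap. In bulk skin, fewer cells of a type and less RNA per cell cannot be told apart.

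Levels between genes can be compared only per transcript length, as FPKM (fragments scaled to transcript length and library size). Over the 16 libraries the median FPKM was 64 for Pmp22, 30.2 for Mbp, 18.9 for Egr2, 14.9 for S100b, 4.99 for Sox10, 4.73 for Prx, 3.81 for Ngfr and 0.815 for Mag. The spread between libraries was wider than most of the steps in this order. Mbp ran from 15.4 to 65.9 FPKM and Egr2 from 4.23 to 48, and Sox10, Prx and Ngfr overlapped throughout. S100b varied most, with an FPKM 34.6 times as high in the highest library (vehicle day 4 mouse 4) as in the lowest (LPC day 7 mouse 1). For Prx, Pmp22, Sox10, Mbp and Mag the highest FPKM came from the same library, vehicle day 7 mouse 4. Mag rested on 10 to 73 counts per library, so its values carry the largest counting error of the 8.

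**Figure D1:**
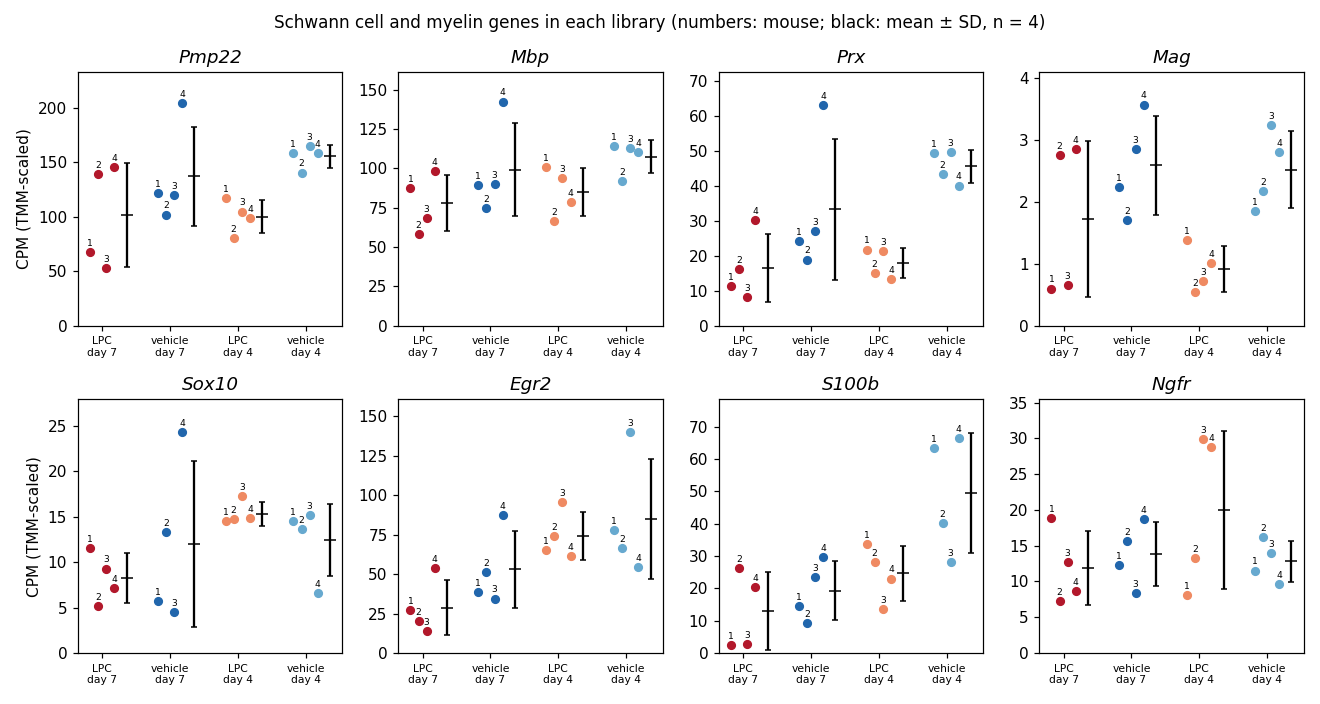
CPM of the 8 genes in each of 16 libraries, with mouse numbers beside the points and the mean ± SD of 4 mice in black; LPC stands left of vehicle at each day. Prx, Pmp22 and Mag did not overlap between LPC and vehicle at day 4, and vehicle day 7 mouse 4 is the highest library for Pmp22, Mbp, Prx, Mag and Sox10.

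Among the sheath genes, Prx showed the clearest difference. It encodes periaxin, a scaffold that links the outer Schwann cell membrane to the basal lamina through a dystroglycan complex. Prx had 21.8, 15.1, 21.4 and 13.5 CPM in LPC day 4 mice 1 to 4, against 49.5, 43.5, 49.8 and 40.1 CPM in vehicle day 4 mice 1 to 4. Every LPC day 4 mouse lay below every vehicle day 4 mouse, and the lowest vehicle value was well above the highest LPC value. The log2 fold change was -1.35 ± 0.40 (SE), with an adjusted p of 0.086 in edgeR, so Prx missed the threshold in the fit to all 16 libraries. DESeq2 (adjusted p = 0.016), limma-voom with sample weights (adjusted p = 0.0096) and edgeR on the 8 day 4 libraries alone (adjusted p = 0.011) each called it, with log2 fold changes of -1.35, -1.34 and -1.38. With the skeletal muscle score as a covariate the value was -0.64 (edgeR, adjusted p = 0.84).

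Mag, myelin-associated glycoprotein, is an adhesion molecule of the membrane that faces the axon. It had 1.39, 0.538, 0.727 and 1.02 CPM in LPC day 4 mice 1 to 4, against 1.85, 2.17, 3.24 and 2.80 CPM in vehicle day 4 mice. These groups did not overlap either, at levels close to the lower end of what was tested. The log2 fold change was -1.45 ± 0.49 with an adjusted p of 0.13 in edgeR, and DESeq2 (adjusted p = 0.0498), limma-voom (adjusted p = 0.030) and edgeR on the day 4 libraries alone (adjusted p = 0.028) called it. Holding the muscle score constant gave -0.53.

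Pmp22, peripheral myelin protein 22, is a protein of compact myelin that many non-neural cells also make, fibroblasts and epithelia among them. Its values were 117, 80.2, 105 and 99.1 CPM in LPC day 4 mice, against 158, 141, 165 and 159 CPM in vehicle day 4 mice, again without overlap. It differed by -0.64 ± 0.29 on the log2 scale (edgeR, adjusted p = 0.25), and edgeR on the day 4 libraries alone gave an adjusted p of 0.018. With the muscle score as a covariate the value was 0.04. For Prx, Mag and Pmp22 alike, then, the muscle markers were lower in the same LPC day 4 mice, and the difference shrank when their score was held constant. Among the 4 vehicle day 4 mice alone the 3 genes ran against the muscle score. In that group mouse 3 had a muscle score of 6.81, where the other mice had 10.4 to 10.8. The same mouse had the highest Prx, Mag and Pmp22 values of its group. The weight of mouse 3 in the relation was not tested. The shares of the difference that belong to nerve and to muscle-bearing tissue cannot be told apart from these libraries.

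Mbp, myelin basic protein, holds the cytoplasmic faces of the sheath together. It had 101, 66.7, 94.1 and 78.8 CPM in LPC day 4 mice, against 115, 92.1, 113 and 111 CPM in vehicle day 4 mice. These values overlapped, because LPC mice 1 and 3 stood above vehicle mouse 2, and Mbp differed by -0.34 ± 0.21 on the log2 scale (edgeR, adjusted p = 0.39). On FPKM the same libraries did not overlap, at 33.7, 22.2, 29.9 and 24.7 with LPC and 44.7, 37.4, 51.4 and 48.9 with vehicle. The log2 difference on FPKM + 0.1 was -0.73 (limma, adjusted p = 0.19). The 2 scales part for Mbp because FPKM divides by a transcript length that itself differed between the libraries, as described below.

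At day 4 none of the 8 genes was called by edgeR, against 0.139% of all genes, while 3 of 8 had an unadjusted p under 0.05 (19.2% of all genes), and DESeq2 and limma-voom called 2 each (7.03% and 10.7% of all genes). In CPM, 3 of 8 (Prx, Mag and Pmp22) lay lower in every LPC mouse than in every vehicle mouse, against 8.67% of all genes tested. The fold change was negative for 6 of 8, with a median log2 value of -0.49 where that of all genes tested was 0.00. Sox10 and Ngfr were the exceptions, with log2 fold changes of 0.30 ± 0.43 and 0.64 ± 0.40 (adjusted p = 0.74 and 0.40 in edgeR).

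At day 7 all 8 genes had a negative fold change (median -0.55 on the log2 scale, all genes 0.02), and none was called by edgeR, against 3.83% of all genes. DESeq2 and limma-voom called none either (9.11% and 1.13% of all genes). An unadjusted p under 0.05 was found for 2 of 8 (Egr2 and Prx), where 19.7% of all genes had one. None of the 8 separated the groups in CPM, against 5.16% of genes that were lower without overlap. The LPC mice at day 7 were not alike. Prx had 11.3, 16.2, 8.26 and 30.2 CPM in LPC day 7 mice 1 to 4, against 24.3, 18.96, 27.1 and 63.3 CPM in vehicle day 7 mice 1 to 4. LPC mice 1 to 3 were below all vehicle values, and LPC mouse 4 was above vehicle mice 1 to 3. This gave a log2 fold change of -1.02 ± 0.39 (edgeR, adjusted p = 0.16), and it ran from -1.49 without LPC mouse 4 (adjusted p = 0.038) to -0.51 without vehicle mouse 4 (adjusted p = 0.56).

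Pmp22 and Mag each set LPC day 7 mice 1 and 3 apart from mice 2 and 4. Pmp22 had 68.0 and 53.0 CPM in LPC mice 1 and 3 and 140 and 145 CPM in LPC mice 2 and 4, against 122, 102, 120 and 204 CPM in vehicle mice 1 to 4. Mag had 0.602 and 0.652 CPM in LPC mice 1 and 3 and 2.76 and 2.85 CPM in LPC mice 2 and 4, against 2.24, 1.70, 2.85 and 3.57 CPM in vehicle mice. LPC mice 1 and 3 thus stood below all vehicle mice for both genes, and mice 2 and 4 stood among them. Skeletal muscle markers summed to 993 and 332 CPM in LPC mice 1 and 3 and to 13332 and 19262 CPM in LPC mice 2 and 4, and chondrocyte markers to 110, 91.9, 1029 and 1015 CPM in the same order. The edgeR log2 fold changes at day 7 were -0.43 for Pmp22 (adjusted p = 0.45), -0.59 for Mag (adjusted p = 0.56) and -0.35 for Mbp (adjusted p = 0.39). Single libraries moved these values. With 1 library left out, Pmp22 ran from -0.66 without LPC mouse 4 to -0.18 without vehicle mouse 4, and Mbp from -0.48 to -0.12 without the same mice. Mag ran from -0.94 without LPC mouse 4 to -0.31 without LPC mouse 1.

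Averaged over both days, Prx was the 1 gene of the 8 called, where 1.02% of all genes were called lower. Prx fell by 1.18 ± 0.28 on the log2 scale (edgeR, adjusted p = 0.034), and DESeq2 (adjusted p = 0.0017) and limma-voom (adjusted p = 0.023) called it too. The call was lost in 10 of 16 fits that left out 1 library (adjusted p from 0.0082 to 0.079), in which the value ran from -1.42 to -0.93. It was also lost with the muscle score as a covariate, at -0.81 with an adjusted p of 0.15. Mag was at -1.02 (adjusted p = 0.093 in edgeR, 0.051 in limma-voom), and DESeq2 called it (adjusted p = 0.040). Pmp22 (-0.53, adjusted p = 0.13), Mbp (-0.34, adjusted p = 0.17), Egr2 (-0.54, adjusted p = 0.25) and S100b (-0.78, adjusted p = 0.29) had negative values that did not pass, and Sox10 (-0.12) and Ngfr (0.21) were near 0. The sign of 3 of these values depended on the setting, as S100b was 0.17 and Ngfr -0.26 with the muscle covariate and Sox10 was 0.36 with limma-voom. When the LPC effects of day 7 and day 4 were set against each other, edgeR called none of the 8 genes (0% of all 15782 genes). At an unadjusted p under 0.05 there were 0 of 8 (16.9% of all genes). DESeq2 and limma-voom each called 0 of 8 (3.8% and 0.057% of all genes).

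**Figure D2:**
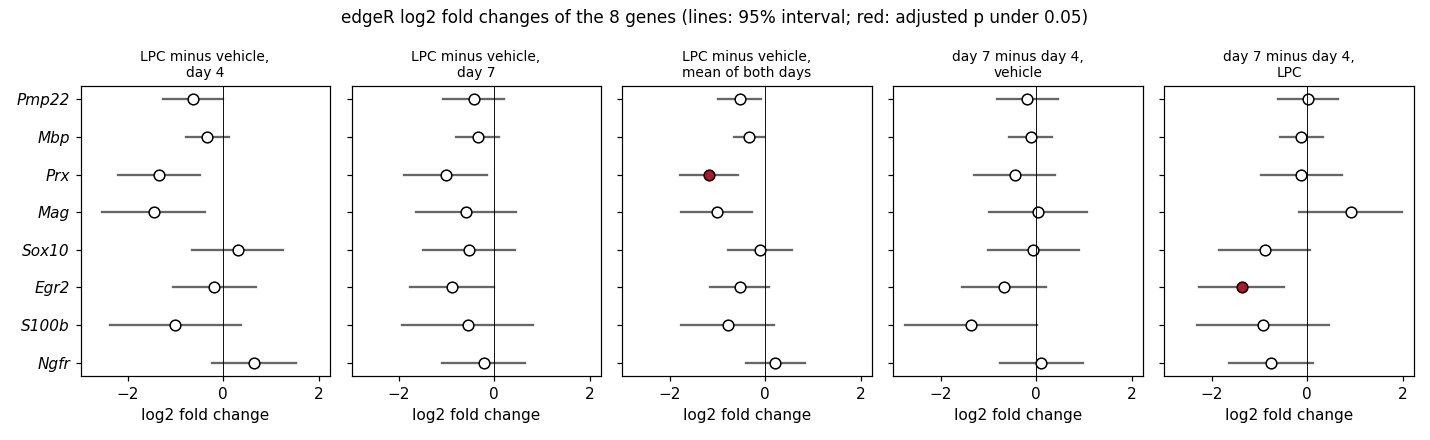
Log2 fold changes of the 8 genes from edgeR in 5 comparisons, with 95% intervals as lines and called genes in red. Of 40 values, Prx in the LPC effect averaged over both days and Egr2 between the days with LPC are called; most intervals of the other values include 0.

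The upstream DNA of Pmp22, Prx and Mag, whose levels moved together between libraries, is shown for reference, as RefSeq gives it for build GRCm38.p6. Each line is written 5′ to 3′ and ends before the first base of the gene as annotated. Matches to an EGR core (GCGNGGGCG) or a SOX core (ACAAAG or ACAATG), searched on both strands, are in capitals. Pmp22 lies on chromosome 11 (chr11:63128732-63128981, + strand), and Prx and Mag both on chromosome 7 (chr7:27499074-27499304, + strand, and chr7:30914923-30915113, - strand).
Pmp22: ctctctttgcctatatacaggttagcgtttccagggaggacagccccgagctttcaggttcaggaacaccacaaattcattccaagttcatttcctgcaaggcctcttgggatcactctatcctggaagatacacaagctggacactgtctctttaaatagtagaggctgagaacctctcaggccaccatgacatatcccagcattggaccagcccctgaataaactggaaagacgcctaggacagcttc
Prx: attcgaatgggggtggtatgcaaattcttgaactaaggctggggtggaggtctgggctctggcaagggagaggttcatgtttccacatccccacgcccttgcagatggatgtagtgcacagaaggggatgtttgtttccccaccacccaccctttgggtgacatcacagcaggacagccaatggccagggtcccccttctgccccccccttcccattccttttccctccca
Mag: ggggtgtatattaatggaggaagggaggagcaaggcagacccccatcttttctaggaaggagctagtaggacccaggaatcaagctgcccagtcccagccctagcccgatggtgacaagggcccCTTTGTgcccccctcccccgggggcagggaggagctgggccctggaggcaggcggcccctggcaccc
Among these 3, the single match was a SOX core on the reverse strand upstream of Mag. Of 32817 RefSeq windows of 250 bases, 25.2% held a SOX core (16.5% ACAAAG and 10.7% ACAATG) and 4.7% the EGR core. A match is a description of the letters and no evidence of binding, and a window without one says nothing of the factor. Entries were found for 6 of the 8 genes.

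The mean transcript length deposited for Mbp was greater with LPC than with vehicle, by a ratio that few of the genes compared exceeded. RSEM, the program that estimated the counts, reports for each gene the mean length of its transcripts weighted by their estimated share. For Mbp this was 2931, 3184, 3130 and 3218 bases in LPC day 4 mice 1 to 4, against 2480, 2472, 2421 and 2410 bases in vehicle day 4 mice 1 to 4. The means were 3116 ± 128 and 2446 ± 35.7 bases (SD, n = 4 each), a ratio of 1.27, and the groups did not overlap (two-sided exact permutation test, p = 0.0286, the smallest that 4 against 4 can give). The test was chosen after the values were seen. Of 9671 genes whose length was compared, 2.67% were longer without overlap at day 4, and 8 genes (0.0827%) had a larger ratio than Mbp. These were tested genes above a minimum level whose length varied between libraries. Genes that were shorter with LPC are not part of these shares.

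At day 7 the lengths were 3973, 2948, 4189 and 2668 bases in LPC mice, against 3036, 3069, 2862 and 2300 bases in vehicle mice. LPC mice 1 and 3, which were low in Pmp22 and Mag, had the 2 longest means of the 16 libraries, and the groups overlapped. The means were 3444 ± 749 and 2816 ± 356 bases, a ratio of 1.22 (exact permutation test, p = 0.257), which 3 of the 9671 genes (0.031%) exceeded. For the other 7 genes the longest and shortest deposited lengths differed by a ratio of at most 1.05.

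The Mbp locus on chromosome 18 (82475091 to 82585637, GRCm38.p6) has 2 groups of start sites. In the GENCODE annotation of GRCm38, 6 transcripts with a RefSeq match start between 82554470 and 82554580 and are 638 to 2070 bases long, and 2 start about at the upstream end of the gene (82475146 and 82475162) and are 4797 and 2492 bases long. Transcripts from the downstream starts encode the classic myelin basic proteins. Those from the upstream start encode the golli proteins, which are also made outside myelin, in cells of the immune system among others. All 16 deposited means were longer than the longest of the 6 downstream transcripts. Which transcript set the authors used for these lengths is not stated in the labels or files, and it may differ from GENCODE. The values per transcript were not analysed here, so which transcripts changed share was not tested.

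Across the 16 libraries the Mbp length ran against the levels of the other sheath genes. It was correlated with Pmp22 at Pearson r = -0.96 and Spearman rho = -0.96 (permutation p = 1e-05, the smallest the resampling can give, and 9e-05 after Benjamini-Hochberg adjustment over 18 relations). Without the 2 libraries of most extreme length r was -0.92, and for deviations from the group means it was -0.96. For Prx, r was -0.93 and rho -0.95 (adjusted p = 9e-05 for both, r = -0.95 without the 2 extreme libraries). For Mag, r was -0.80 and rho -0.84 (adjusted p = 0.00045 and 0.00066, r = -0.73 without them). With Sox10 it was -0.11 (rho = -0.08, adjusted p = 0.74 and 0.82, r = -0.12 without them) and with Ngfr 0.21 (rho = 0.27, adjusted p = 0.48 and 0.36, r = 0.21 without them). With S100b r was -0.88 and rho -0.75 (adjusted p = 0.0003 and 0.0044, r = -0.64 without them). The length also ran against the skeletal muscle score (r = -0.71, rho = -0.78, adjusted p = 0.0038 and 0.0026, r = -0.69 without them). It ran with the score of 9 neutrophil markers (r = 0.74, rho = 0.67, adjusted p = 0.0040 and 0.012, r = 0.53 without them). It further ran against the adipocyte score (r = -0.68, rho = -0.72, adjusted p = 0.0060 and 0.0059, r = -0.56 without them) and the endothelial and mural cell score (r = -0.60, rho = -0.70, adjusted p = 0.023 and 0.0081, r = -0.45 without them). With the chondrocyte score r was -0.82 and rho -0.49 (adjusted p = 0.0030 and 0.093), and r was -0.38 without the 2 extreme libraries, so that relation rests largely on those 2. The part of these tissues in the Mbp length was not tested.

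**Figure D3:**
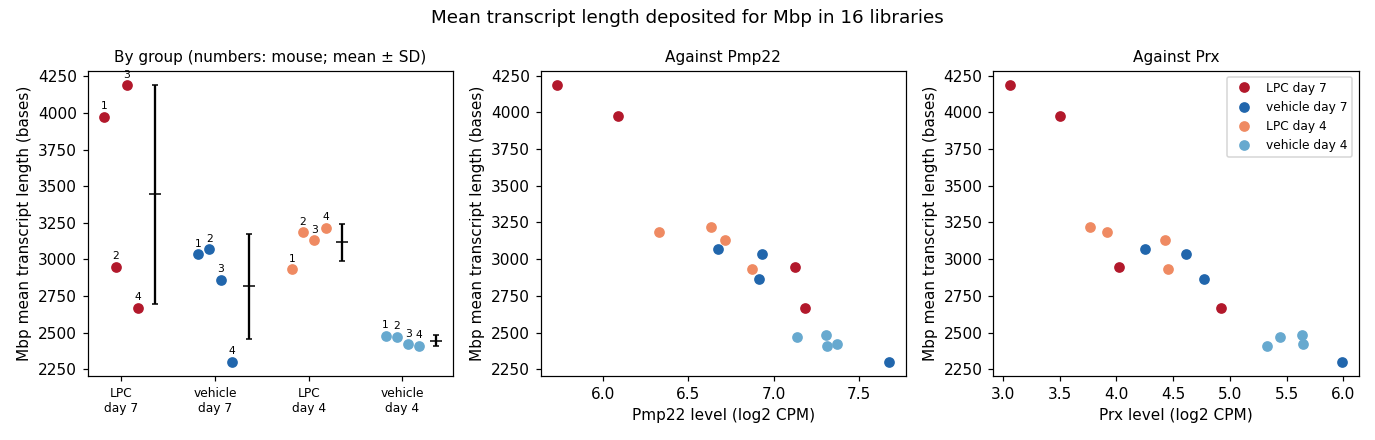
Mean transcript length deposited for Mbp, in bases, by group (mouse numbers beside points, mean ± SD of 4 mice in black) and against the log2 CPM of Pmp22 and Prx in the 16 libraries; length axes do not start at 0. The length was greater in all 4 LPC day 4 mice than in all 4 vehicle day 4 mice, and libraries with lower Pmp22 and Prx had longer Mbp means.

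Of the regulators, Egr2 was the 1 gene of the 8 called between the days with LPC, where 4.13% of all genes were called lower. Egr2 had 27.2, 20.02, 13.96 and 53.7 CPM in LPC day 7 mice 1 to 4, against 65.1, 74.2, 95.5 and 61.7 CPM in LPC day 4 mice 1 to 4. The groups did not overlap, and LPC day 7 mouse 4 came nearest to the earlier group. Egr2 fell by 1.37 ± 0.41 on the log2 scale (edgeR, adjusted p = 0.044), and DESeq2 (adjusted p = 0.0089) and limma-voom (adjusted p = 0.041) called it too. The call was lost in 7 of 8 fits that left out 1 of these libraries (values from -1.86 to -1.14, adjusted p from 0.016 to 0.12). It was also lost with the muscle score as a covariate (adjusted p = 0.11) and with the 2 groups fitted alone (adjusted p = 0.071). With vehicle Egr2 had 38.7, 51.2, 34.5 and 87.6 CPM at day 7, against 78.2, 66.4, 140 and 54.5 CPM at day 4, with overlap and a log2 fold change of -0.68. EdgeR and DESeq2 did not call that change, and limma-voom did. The change with LPC less the change with vehicle was -0.69 on the log2 scale (edgeR, adjusted p = 0.55). For LPC against vehicle the Egr2 value was -0.19 ± 0.40 at day 4 (edgeR, adjusted p = 0.82) and -0.88 at day 7 (adjusted p = 0.24).

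Outside Schwann cells Egr2 is also expressed in hair follicles and in immune cells. Its log2 CPM ran against the neutrophil score at r = -0.83 and rho = -0.74 (permutation test, adjusted p = 0.0035 and 0.014 over 88 relations of the 8 genes with 11 marker lists, r = -0.80 without the 2 most extreme libraries). Within groups r was -0.68 to -0.94. The 9 neutrophil markers summed to 4598 to 13139 CPM in LPC day 7 mice, 278 to 5008 CPM in vehicle day 7 mice, 535 to 2858 CPM in LPC day 4 mice and 140 to 2555 CPM in vehicle day 4 mice. Egr2 also followed the hair follicle score (r = 0.65, rho = 0.81, permutation test, adjusted p = 0.030 and 0.0079, r = 0.73 without the 2 extreme libraries). That score averaged 3.05 ± 1.22 in LPC day 7 mice and 4.64 ± 1.74 in LPC day 4 mice (SD). With the melanocyte score r was 0.70 and rho 0.75 (adjusted p = 0.014 and 0.013), though r was -0.63 within LPC day 7 mice. The part of these cells in the Egr2 result was not tested.

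Sox10, the transcription factor of the whole Schwann cell lineage and of melanocytes, had 11.5, 5.17, 9.29 and 7.16 CPM in LPC day 7 mice, against 14.5, 14.7, 17.3 and 14.8 CPM in LPC day 4 mice. These did not overlap, which held for 2 of the 8 genes, Sox10 and Egr2, and for 8.22% of all genes in that direction. The log2 fold change was -0.89 with an adjusted p of 0.18 in edgeR. In vehicle mice Sox10 ranged from 4.53 to 24.3 CPM at day 7 and from 6.59 to 15.2 CPM at day 4. Sox10 followed the melanocyte score at r = 0.83 and rho = 0.83 (permutation test, adjusted p = 0.0035 and 0.0079, r = 0.78 without the 2 extreme libraries), and within groups at 0.70 to 0.98. The 9 melanocyte markers summed to 35.4 to 39.7 CPM in LPC day 7 mice, 36.2 to 126 CPM in vehicle day 7 mice, 107 to 165 CPM in LPC day 4 mice and 41.4 to 239 CPM in vehicle day 4 mice. The melanocyte markers were thus also lower in every LPC day 7 mouse than in every LPC day 4 mouse when summed, and their part in the Sox10 values was not tested.

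S100b and Ngfr are the broadest markers of the set. S100b is made by chondrocytes and by dendritic cells as well as by Schwann cells, and ear skin lies on cartilage. S100b had 33.8, 28.1, 13.6 and 23.1 CPM in LPC day 4 mice, against 63.5, 40.3, 28.1 and 66.4 CPM in vehicle day 4 mice. LPC mice 1 and 2 lay above vehicle mouse 3, mouse 2 by a narrow margin, so the groups overlapped, with a log2 fold change of -1.01 ± 0.63 (edgeR, adjusted p = 0.40). At day 7 it had 2.47, 26.3, 2.88 and 20.3 CPM with LPC, against 14.5, 9.17, 23.6 and 29.6 CPM with vehicle. LPC mice 1 and 3 were below all other libraries, and mice 2 and 4 were not. S100b tracked the chondrocyte score at r = 0.96 and rho = 0.74 (permutation test, adjusted p = 0.00088 and 0.013), and r was 0.85 without the 2 libraries of most extreme S100b. Within the 4 groups r was 0.84 to 0.997. With the muscle score as a covariate the S100b effect of LPC at day 4 turned to 1.04 (edgeR, adjusted p = 0.72).

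Ngfr had 8.11, 13.2, 30.0 and 28.8 CPM in LPC day 4 mice, against 11.5, 16.3, 13.9 and 9.63 CPM in vehicle day 4 mice. LPC mice 3 and 4 were the 2 highest of all 16 libraries and LPC mouse 1 was among the lowest, so the groups overlapped, with a log2 fold change of 0.64 ± 0.40 (edgeR, adjusted p = 0.40). At day 7 it ranged from 7.23 to 18.8 CPM with LPC and from 8.43 to 18.8 CPM with vehicle. The adjusted p for LPC against vehicle at day 7 was 0.82 in edgeR. Ngfr followed the melanocyte score (r = 0.63, rho = 0.72, permutation test, adjusted p = 0.032 and 0.018, r = 0.54 without the 2 extreme libraries). Within groups r was 0.88 to 0.998. Against the adipocyte score r was -0.60 and rho -0.61 (adjusted p = 0.042 and 0.052, r = -0.57 without them). The part of these cells in the Ngfr values was not tested.

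**Figure D4:**
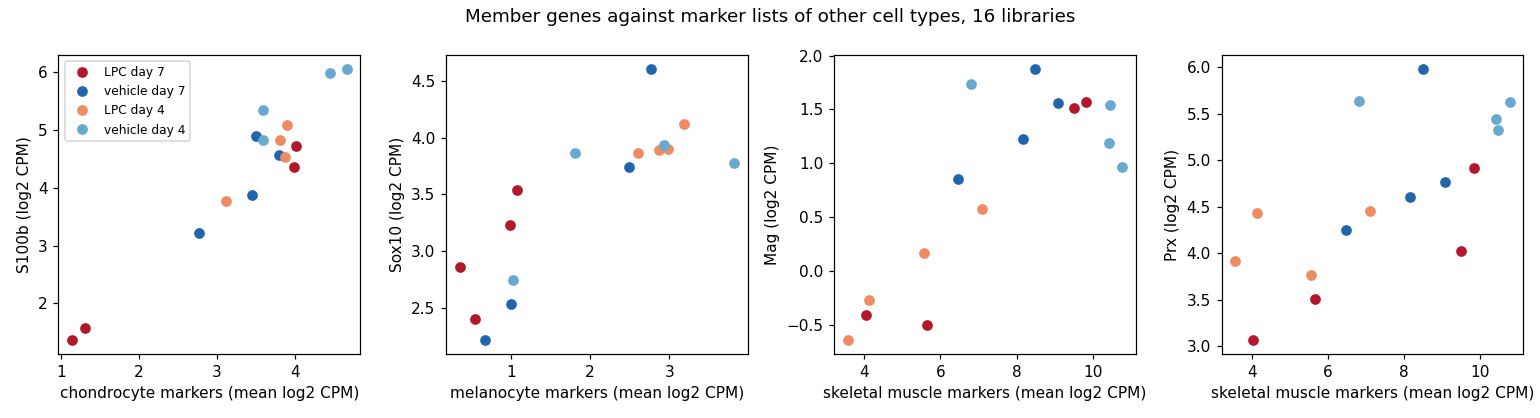
Log2 CPM of S100b, Sox10, Mag and Prx against the mean log2 CPM of marker lists of chondrocytes, melanocytes and skeletal muscle in the 16 libraries, coloured by group. S100b followed the chondrocyte markers (r = 0.96) and Sox10 the melanocyte markers (r = 0.83), while Mag and Prx followed the muscle markers with more scatter (r = 0.82 and 0.69).

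Among themselves the 8 genes fell into looser and tighter pairs. Of the 28 pairs, Pmp22 and Prx were closest, with r = 0.92 and rho = 0.94 (permutation test, adjusted p = 0.00014 and 0.00049, r = 0.87 without the 2 extreme libraries). Pmp22 and Mag had r = 0.87 and rho = 0.88 (adjusted p = 0.00014 and 0.00049, r = 0.84 without them), and Mbp and Prx r = 0.82 and rho = 0.85 (adjusted p = 0.0011 and 0.00049, r = 0.82 without them). Sox10 went with Ngfr (r = 0.66, rho = 0.67, adjusted p = 0.018 and 0.021, r = 0.53 without them) and with Egr2 (r = 0.64, rho = 0.84, adjusted p = 0.020 and 0.00049, r = 0.54 without them). Pmp22 and S100b had r = 0.79 and rho = 0.66 (adjusted p = 0.0033 and 0.021), which dropped to r = 0.48 without the 2 extreme libraries and so rests largely on those 2. Mag followed the muscle score (r = 0.82, rho = 0.67, adjusted p = 0.0035 and 0.028, r = 0.77 without the 2 extreme libraries). Pmp22 did so too (r = 0.76, rho = 0.77, adjusted p = 0.0055 and 0.011, r = 0.72 without them), and Prx with r = 0.69 and rho = 0.70 (adjusted p = 0.020 and 0.019, r = 0.66 without them). Within groups of 4 mice the relation to muscle was not the same throughout. For Mag r was 0.96 in LPC day 7, 0.83 in vehicle day 7, 0.99 in LPC day 4 and -0.77 in vehicle day 4 mice. For Pmp22 and Prx it was likewise negative in vehicle day 4 mice (-0.54 and -0.51) and positive in the other 3 groups (0.49 to 0.999 and 0.30 to 0.91). Vehicle day 4 mouse 3 had a muscle score far below those of the other mice in its group. The weight of that mouse in these values was not tested.

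Muscle was not the only marker list that these genes followed. Prx ran against the neutrophil score (r = -0.78, rho = -0.75, permutation test, adjusted p = 0.0048 and 0.013, r = -0.66 without the 2 extreme libraries). Pmp22 did so too (r = -0.70, rho = -0.62, adjusted p = 0.017 and 0.046, r = -0.47 without them). Mag followed the endothelial and mural cell score (r = 0.79, rho = 0.78, adjusted p = 0.0042 and 0.011, r = 0.69 without them), as did Pmp22 (r = 0.71, rho = 0.76, adjusted p = 0.013 and 0.011, r = 0.65 without them). Mag also followed the T cell score (r = 0.77, rho = 0.71, adjusted p = 0.0067 and 0.018, r = 0.69 without them) and the macrophage and dendritic cell score (r = 0.76, rho = 0.81, adjusted p = 0.0090 and 0.0079, r = 0.69 without them). All 3 genes also followed the adipocyte score. For Mag r was 0.73 and rho 0.65 (permutation test, adjusted p = 0.012 and 0.039, r = 0.61 without the 2 extreme libraries). For Pmp22 they were 0.69 and 0.71 (adjusted p = 0.015 and 0.018, r = 0.58 without them). For Prx they were 0.63 and 0.69 (adjusted p = 0.032 and 0.023, r = 0.70 without them). With LPC at day 4 all 10 adipocyte markers had negative fold changes (median log2 -2.83, none called). At day 7 the direction differed, with 0 of 10 adipocyte markers negative (median log2 1.81, none called). Of the 12 muscle markers, 2 had a negative fold change at day 7 (median log2 0.44, none called). The part of these cells in the values of Prx, Pmp22 and Mag was not tested.

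The genes most like each of the 8 over the 16 libraries, among 13846 genes, differed by gene. For Prx they included Pllp (r = 0.96) and Drp2 (0.94), a partner of periaxin in the dystroglycan complex. For Pmp22 they included Ackr1 (0.99), a chemokine receptor of venules, and Gdf1 (0.96). For S100b they were Frzb (0.99), Corin (0.99) and Lect1 (0.98), the last of which encodes chondromodulin of cartilage. Mbp had less close matches (Nkain3, Prx and Kcna1, r = 0.83 to 0.81), as had Ngfr (Thap7, Wdr59 and Txlna, r = 0.83 to 0.80). For Sox10 they were Jag2, Pou4f1 and Fbrsl1 (r = 0.92 to 0.91), for Egr2 Col4a6, Arl4a and Kifc3 (r = 0.95 to 0.94) and for Mag Cacna1a, Nfatc2 and Ky (r = 0.94 to 0.92). These are descriptions over libraries that share group and tissue content, and they are not tests.

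Other genes of the Schwann cell programme were taken as 8 lists of 115 genes in all, of which 111 were tested. At day 4 edgeR called none of them (0.139% of all genes), with 28 (25.2%) at an unadjusted p under 0.05, where 19.2% of all genes had one. DESeq2 called 9 (7.03% of all genes) and limma-voom 15 (10.7% of all genes). At day 7 edgeR called 5 higher (2.38% of all genes) and 1, Elovl6, lower (1.44%). Averaged over both days it called 8 higher (3.05%) and 2, Drp2 and Lgi4, lower (1.02%). Of 11 tested genes of compact myelin and the myelin membrane, 8 had a negative LPC effect averaged over the days (median -0.38, all genes -0.01). Of these 11 genes, 1 was called, and that one was higher. This was Gjb1, the gap junction protein connexin 32 of Schwann cells and many epithelia, which rose by 1.22 ± 0.28 on the log2 scale (edgeR, adjusted p = 0.030). Gjb1 averaged 7.48 ± 5.15 CPM in LPC day 4 mice and 1.83 ± 0.28 CPM in vehicle day 4 mice (SD, n = 4 each). At day 7 the averages were closer, at 3.16 ± 0.45 CPM with LPC and 2.38 ± 0.46 CPM with vehicle. The log2 fold change at day 7 was 0.41 (edgeR, adjusted p = 0.63).

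Cldn19, the claudin of Schwann cell tight junctions, had an averaged LPC effect of -1.36 ± 0.38 that did not pass (edgeR, adjusted p = 0.054). Cnp, an enzyme of non-compact myelin, had -1.32 at day 4 (edgeR, adjusted p = 0.069) and 0.14 at day 7 (adjusted p = 0.88).

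Of 16 genes for adhesion at the axonal, nodal and outer surfaces, Drp2 was called for the averaged LPC effect. It fell by 1.11 ± 0.28 on the log2 scale (edgeR, adjusted p = 0.043). Drp2 averaged 19.9 ± 7.77 CPM in LPC day 4 mice and 44.8 ± 11.5 CPM in vehicle day 4 mice, and 14.7 ± 8.32 CPM in LPC day 7 mice and 30.3 ± 13.7 CPM in vehicle day 7 mice (SD, n = 4 each). Of the 12 genes for neuregulin, integrin and G protein-coupled receptor signalling, Lgi4, a secreted protein that Schwann cells need for myelination, fell by 0.69 ± 0.19 (edgeR, adjusted p = 0.0497). Nrg1, a growth factor gene whose axonal form sets myelin thickness, had a value of 1.40 ± 0.43 (edgeR, adjusted p = 0.075). Which cells of the skin held the Nrg1 transcripts was not tested. The list medians were -0.13 for adhesion and 0.03 for signalling.

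Of 16 myelin lipid genes, 13 had a negative averaged LPC effect (median -0.27). At day 7 Elovl6, a fatty acid elongase that skin and fat also use, fell by 1.92 ± 0.46, and Cers2, a ceramide synthase, rose by 0.50 ± 0.13 (edgeR, adjusted p = 0.034 and 0.048). Of 17 tested transcription factors of the lineage 3 rose for the averaged effect and none was called lower (median 0.21). They were the immediate early gene Egr1 (1.00), Id2 (0.60), an inhibitor of basic helix-loop-helix factors, and Yy1 (0.40), with adjusted p of 0.042, 0.029 and 0.045 in edgeR. Of 15 markers of immature and non-myelinating Schwann cells, 1 was called at day 7, the adhesion molecule Mcam, which endothelium and pericytes also make and which rose by 0.92 ± 0.21 (edgeR, adjusted p = 0.031).

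The 12 genes that Schwann cells induce after nerve injury had the highest list median for the averaged LPC effect, 0.90, with 4 called higher, among them Jun, Gdnf and Ccl2, and none lower. Several of them are also made by other cells of inflamed skin. Jun, a driver of the repair state of Schwann cells and an immediate early gene in most cells, rose by 1.67 ± 0.26 (edgeR, adjusted p = 0.0083). It averaged 458 ± 176 CPM in LPC day 4 mice and 168 ± 21.9 CPM in vehicle day 4 mice, and 381 ± 240 CPM in LPC day 7 mice and 103 ± 20.4 CPM in vehicle day 7 mice (SD, n = 4 each). Gdnf, a glial neurotrophic factor, rose by 2.00 ± 0.38 (edgeR, adjusted p = 0.017). It averaged 9.82 ± 3.63 CPM in LPC day 4 mice and 1.55 ± 0.79 CPM in vehicle day 4 mice.

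The calls of Jun and Gdnf were kept in all 16 fits that left out 1 library. The chemokine gene Ccl2 rose by 1.13 ± 0.29 (edgeR, adjusted p = 0.045), a call lost in 11 of those 16 fits. The calls of Drp2, Gjb1 and Lgi4 were lost in 12, 11 and 13 of them, those of Egr1, Yy1 and Id2 in 12, 13 and 7. With the muscle score as a covariate edgeR called 2 of the 111 genes for the averaged effect, against 10 without it. The number called over all genes also fell with the covariate, as given below. Jun was still called (adjusted p = 0.042), and Gdnf was not (adjusted p = 0.13). The calls of Drp2, Gjb1, Lgi4, Egr1, Yy1, Id2 and Ccl2 were lost as well, at adjusted p from 0.066 to 0.28. The 14 neurotrophins and receptors had a list median of 0.18 for the averaged effect, and at day 7 Sorcs2, a co-receptor of Ngfr, rose by 1.27 ± 0.28 (edgeR, adjusted p = 0.029). At day 7 the cytokine gene Lif rose by 3.18 ± 0.79 (adjusted p = 0.040), at 67.6 ± 76.9 CPM in LPC mice and 7.44 ± 3.16 CPM in vehicle mice. Most of the day 7 calls were lost without single libraries. In 8 fits that left out 1 library, the call was lost in 8 for Cers2, 6 for Lif, 6 for Mcam, 5 for Elovl6, 5 for Sorcs2 and 2 for Jun. Limma-voom called 1 of the 111 genes at day 7 (1.13% of all genes), namely Jun (adjusted p = 0.033), and gave adjusted p from 0.053 to 0.17 for the other 5. DESeq2 called 15 (9.11% of all genes), and edgeR with the muscle covariate called 12, without Lif (adjusted p = 0.059). Over all 15782 genes that covariate fit called 657 higher and 444 lower at day 7.

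**Figure D5:**
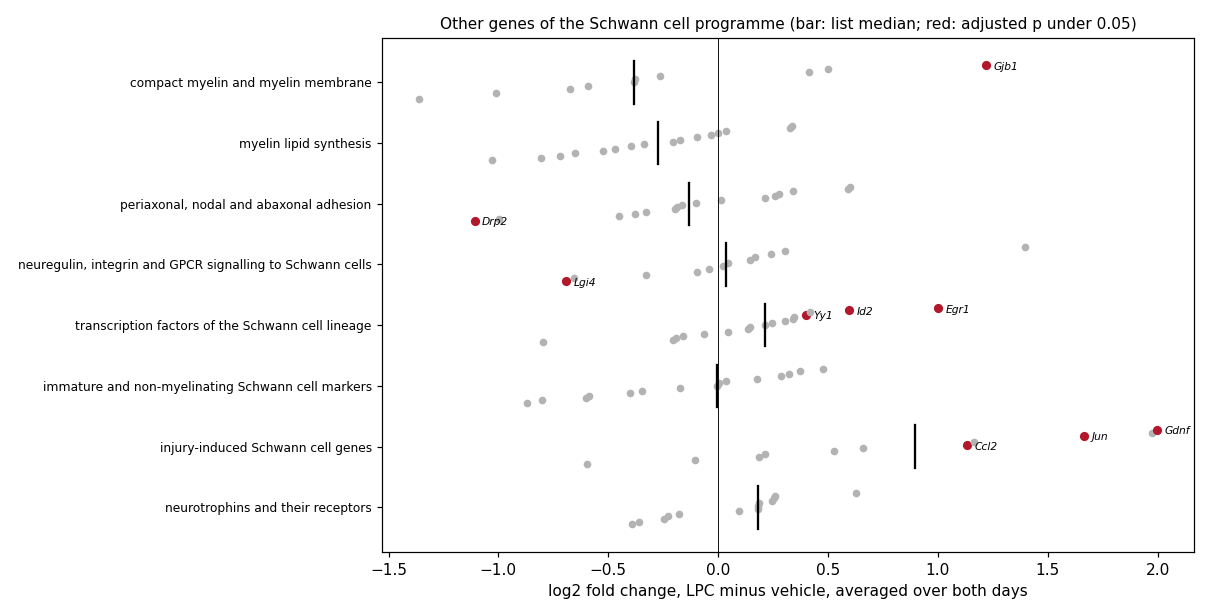
LPC effect averaged over both days (log2 fold change, edgeR) for genes of the 8 lists that are reported here, with called genes in red and named and medians over all tested genes of each list as black bars. The list of compact myelin and myelin membrane genes has its median at -0.38 with Gjb1 called higher. The list of injury-induced genes has its median at 0.90 with Jun, Gdnf and Ccl2 among those called higher.

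Between the days with LPC, 14 of the 111 genes were called, against 11% of all genes. Mal, Cldn11, Scd2, Zeb2, Mcam, Gap43, Sorcs2 and Maged1 were higher at day 7 (6.87% of all genes), and Ncmap, Fa2h, Elovl6, Gldn, Shh and Ntf3 were lower (4.13%). Ncmap, a membrane protein of non-compact myelin, averaged 4.40 ± 2.36 CPM in LPC day 7 mice and 13.4 ± 4.04 CPM in LPC day 4 mice (log2 -1.60, edgeR, adjusted p = 0.044). Gap43, a growth-associated protein of regenerating axons and immature Schwann cells, averaged 4.52 ± 1.37 CPM in LPC day 7 mice and 1.76 ± 1.06 CPM in LPC day 4 mice (log2 1.36, edgeR, adjusted p = 0.042). Of the 111 genes 6 were called with the muscle covariate, 5 by limma-voom (5.06% of all genes) and 19 by DESeq2 (19.6%). Over all 15782 genes the covariate fit called 493 higher and 293 lower. In 8 fits that left out 1 library, the call was lost in 8 for Gldn, 7 for Elovl6 and 6 each for Ncmap and Gap43, while Zeb2 and Mcam kept theirs in all 8. With vehicle, edgeR called none of the 111 between the days, with 15 (13.5%) at an unadjusted p under 0.05, where 13% of all genes had one. DESeq2 called 2 (1.49% of all genes) and limma-voom 22 (15.8% of all genes). EdgeR called none of the 8 genes either (1 at an unadjusted p under 0.05, 0 by DESeq2 and 3 by limma-voom).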

How the data were processed

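Total RNA of ear skin from 16 mice was sequenced on a BGISEQ-500 instrument, per the labels' protocols, which name Bowtie2, GRCm38 and RSEM. Tool versions and the strand setting were not given in the sources used here. Per gene, the deposited files hold an expected count (RSEM's estimate, in which reads shared by genes are divided), an FPKM value and a mean transcript length made by the authors. Groups and mouse numbers came from the sample titles. The deposited files are named for days 3 and 6 where the titles give days 4 and 7, and the titles were followed. Each group has 4 mice, and no pair of libraries in a group agreed within sampling noise. A gene missing from a file was taken as 0.

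Expected counts were rounded, filtered with filterByExpr (15782 genes kept, 3657 removed), scaled by TMM and fitted in edgeR 4.0.16 (R 4.3.3) with a mean per group over all 16 libraries. Benjamini-Hochberg adjustment covered all genes tested, with a threshold of 0.05. Log2 CPM used a prior count of 2. Alternatives were median-of-ratios factors, no filter, a stricter filter (1 CPM in 8 libraries), DESeq2 1.42.0, limma 3.58.1 (voom, and FPKM + 0.1 or + 1), a replicate block, a skeletal muscle covariate, the groups compared alone, and each library left out. Relations across libraries used 100000 permutations. The fit was checked on simulated counts.

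The 8 genes and the lists were chosen with earlier results of these data known. Named list genes are those called at day 4 or day 7 (at most 4 per list), otherwise the 2 with the smallest p, and per gene the 3 closest in correlation; genes called for the averaged LPC effect or between the days were named after their values were seen. Mobp, Mog, Opalin and Pou3f2 did not pass the filter, and results of some list genes are not reported here.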

Additional observations from a re-analysis of the deposited data

Results flagged for a closer look

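One value of the 8 genes stood apart from its group. Sox10 had 17.29 CPM in LPC day 4 mouse 3, whereas the other 3 LPC day 4 mice lay close together at 14.5 to 14.8 CPM, so the gap from this mouse to the nearest of the others was 0.878 of the group's whole range. That is beyond the critical value of Dixon's test for 4 samples. Of 36 groups of values checked, 1 passed it, and chance alone flags about 1 group in 20. Its effect on the comparison was small, since without that mouse Sox10 still did not pass between LPC and vehicle at day 4.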

How the results depend on the processing

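The number of genes called moved with the method. At day 4 (22 genes called) it was 8 without a filter, 1109 with DESeq2, 1683 with limma-voom, 38 with FPKM + 0.1, 40 with FPKM + 1, 47 with FPKM + 0.1 and no filter, 2 with the replicate block, 0 with the muscle covariate (edgeR) and 1333 with the groups fitted alone. At day 7 (604) it was 1438 with DESeq2, 178 with limma-voom, 351 with the block, 1101 with the covariate and 45 with the groups alone. For vehicle between the days (0 with edgeR, 2050 at an unadjusted p under 0.05) it was 235 with DESeq2 and 2489 with limma-voom. For LPC between the days (1736) it was 3093 with DESeq2, 799 with limma-voom, 901 with the block, 786 with the covariate and 1100 with the groups alone. For the difference of LPC effects (0 with edgeR, 2674 at an unadjusted p under 0.05) it was 599 with DESeq2, 9 with limma-voom, 1 with median-of-ratios factors, 1 with FPKM + 1 and 2 with FPKM + 0.1 and no filter. For the averaged LPC effect (642) it was 1781 with DESeq2, 387 with FPKM + 0.1 and no filter, 276 with the block and 268 with the covariate. Leaving out 1 library gave 0 to 683 calls at day 4, 111 to 697 at day 7, 0 to 205 for vehicle, 518 to 2207 for LPC between the days, 0 to 214 for the difference and 142 to 1598 for the averaged effect.

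Sign changes among the 8 genes concerned values that did not pass the test. With the muscle covariate, Pmp22 was 0.039, S100b 1.036, Sox10 -0.209 and Ngfr -0.126 for LPC at day 4, Pmp22 0.019 and Ngfr -0.167 for vehicle between the days, and Pmp22 -0.430 for LPC between the days. Pmp22 for LPC between the days was also -0.056 with limma-voom, -0.238 and -0.231 with FPKM + 0.1 (with or without filter) and FPKM + 1, and -0.044 with the block. With limma-voom Sox10 was 0.311 at day 7, Egr2 0.0082 at day 4 and Ngfr -0.137 for vehicle. Mag for vehicle was -0.027 and -0.013 with FPKM + 0.1 (with or without filter) and FPKM + 1. With 1 library left out, Pmp22 for LPC between the days ran from -0.206 to 0.231, Prx from -0.592 to 0.099, Sox10 at day 7 from -0.802 to 0.078, Sox10 for vehicle from -0.668 to 0.212, Egr2 at day 4 from -0.356 to 0.140, Mag for vehicle from -0.153 to 0.197 and Ngfr for vehicle from -0.079 to 0.282. The cause of these changes was not tested. With the covariate S100b between the days with LPC was -2.47 and called (adjusted p = 0.013), and limma-voom called S100b, Egr2 and Prx between the days with vehicle.

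Between groups, same-numbered libraries were on average no more alike than libraries of different numbers. Deviations of same-numbered libraries correlated at -0.596 to 0.539 (mean -0.047, 24 pairs), and 2 of 16 libraries matched their own number best. For different numbers the correlations were -0.563 to 0.63 (mean 0.016, 72 pairs). Whether mice of the same number shared a batch cannot be told from these values. The replicate block ended the calls of Egr2 (adjusted p = 0.064) and Prx (adjusted p = 0.052). Of the 111 list genes the block left 2 called at day 7 (6 without it), 6 between the days with LPC (14) and 2 for the averaged effect (10). The number called over all genes fell with the block in the same comparisons, as given above. The Mbp length difference at day 4 stayed between 636 and 731 bases with 1 mouse left out. With 10 to 73 counts, Mag is limited by depth.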
